A study of Mus musculus with 6 samples.

Results

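The genes described here are 10 imprinted genes of the mouse, measured in tumors grown in the brains of Esm1 WT and Esm1 KO hosts. They are Meg3, Rian, Mirg and Dlk1 of the Dlk1-Meg3 domain, together with Igf2, Peg3, Snrpn, Ndn, Plagl1 and Cdkn1c. All 10 were found by symbol among the 16729 genes of the deposited table, and all 10 passed the filter on low counts that left 16166 genes. They were selected on their CPM and fold changes between hosts in these libraries, so those differences are given as descriptions, without a test.

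An imprinted gene is transcribed mainly from the copy inherited from one parent, under DNA methylation marks laid down in the egg or the sperm. Imprinted genes lie in clusters, and many of them act on growth, placental function and the developing brain. In the Dlk1-Meg3 domain the maternal copy gives the noncoding RNAs Meg3, Rian and Mirg, and the paternal copy gives the protein-coding genes Dlk1, Rtl1 and Dio3. Reads were counted per gene, so the 2 parental copies could not be told apart in any value below.

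The tumors were formed by mG7080 cells, a gliomasphere culture from a mouse glioblastoma model with engineered mutations that include p53 and Nf1. All 6 hosts were C57BL/6 mice (C57BL/6J in the methods) that received 500000 of these cells, and they differed in genotype, with 3 WT hosts and 3 hosts lacking Esm1, which encodes the endothelial protein Endocan. The host age was given as 6 to 8 weeks in the methods of the study and as 8 to 12 weeks in its reporting summary. The tumor cells came from a single culture and kept their own Esm1 gene in both groups, and RNA was taken from tumor tissue, which mixes transcripts of tumor and host cells. How the Esm1 allele was made is not given in the sources used here.

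The counts of a library summed to between 17632070 and 22241832. One read was worth 0.0441 to 0.0568 CPM, which are counts scaled to a common library size with TMM factors. Esm1 itself had 25, 21 and 82 reads in WT 1, WT 2 and WT 3, 1 read in KO 1, 4 reads in KO 3 and 24 reads in the library labelled KO 2. In reads, the library labelled KO 2 thus lay within the WT range and above KO 1 and KO 3. Since the tumor cells kept their own Esm1 gene, this count alone cannot show whether the host label is wrong. The source of these reads was not tested. Because of this difference, the fold changes of the 10 genes and the counts of calls are given with and without the library labelled KO 2. Over all 6 libraries edgeR's quasi-likelihood test called 0 of 16166 genes (0%) at an adjusted p under 0.05, although 2462 higher (15.2%) and 1923 lower genes (11.9%) had an unadjusted p under 0.05. DESeq2 on the same libraries called 775 higher (4.79%) and 431 lower genes (2.67%), limma-voom called 0, and edgeR without the library labelled KO 2 called 3986 higher and 4608 lower of 16279. With WT 3 left out as well, edgeR called 464 higher (2.87%) and 2244 lower genes (13.9%).

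Transcripts of proliferation and of neurons also differed between these libraries. A list of 16 neuron genes summed to 3008 to 7449 CPM in the WT libraries, 16085 in KO 1, 18879 in KO 3 and 6415 in the library labelled KO 2. A list of 12 proliferation genes summed to 1379 to 2557 CPM in the WT libraries, 166 in KO 1, 75.3 in KO 3 and 1527 in the library labelled KO 2. For all 16 neuron genes KO 1 and KO 3 lay above every WT library, and for all 12 proliferation genes they lay below. Of all genes tested, they lay above every WT library for 37.2% and below for 40.4%. The lists were chosen with earlier results of these data known, so nothing is read from these counts. In bulk tissue, fewer cells of a type and less RNA per cell cannot be told apart, and the part these lists play in the values of the imprinted genes was not tested.

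Per unit of transcript length, the 10 genes spanned a wide range of levels. By the deposited FPKM (reads scaled to transcript length and library size), averaged over the 6 libraries, Meg3 stood at 1903 and ranked 3 among the 16729 genes. Rian followed at 106.7 FPKM, Ndn at 86.7 and Peg3 at 35.4. The other 6 lay between 11.7 FPKM for Igf2 and 0.669 for Snrpn, with Mirg at 9.24, Cdkn1c at 7.22, Dlk1 at 3.78 and Plagl1 at 3.74.

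Meg3 is a long noncoding RNA (NR_046475) transcribed from the maternal copy, known for its abundance in neurons and its loss in several human tumors. It lies on chromosome 12 of GRCm38, from 109541001 to 109571726 on the plus strand. Its level was 2247 CPM in WT 1, 1682 in WT 2 and 1723 in WT 3, against 7331 in KO 1, 5846 in KO 3 and 3849 in the library labelled KO 2. All KO libraries thus lay above all WT libraries, with the library labelled KO 2 the nearest to them. The WT libraries averaged 1884 ± 315 CPM and the KO libraries 5675 ± 1747 CPM (SD, n = 3 each), which is 3.01 times as much. On the log2 scale the fold change, KO against WT, was 1.59 (standard error 0.40) over 6 libraries and 1.82 (0.33) without the library labelled KO 2. Meg3 took between 0.180% and 0.233% of all counted reads in the WT libraries and between 0.410% and 0.671% in the KO libraries.

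Rian (Meg8) lies downstream of Meg3, from 109603940 to 109661716 on the same strand of chromosome 12, and is the host transcript of snoRNAs and miRNAs. Rian stood at 319 CPM in WT 1, 173 in WT 2 and 169 in WT 3, and at 750 in KO 1, 640 in KO 3 and 332 in the library labelled KO 2. The groups did not overlap, but the library labelled KO 2 lay only just above WT 1. Rian had a log2 fold change of 1.38 (0.41) over 6 libraries and 1.67 (0.34) without the library labelled KO 2.

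Mirg, the host of a large miRNA cluster, lies farther downstream, from 109729764 to 109749460. Its values were 10.03, 5.82 and 4.71 CPM in WT 1 to WT 3, 24.2 in KO 1, 17.7 in KO 3 and 12.1 in the library labelled KO 2. As for Meg3, KO 1 was the highest and the library labelled KO 2 the nearest to WT 1, and the groups did not overlap. Its log2 fold change was 1.39 (0.39), and 1.62 (0.36) without the library labelled KO 2.

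The 3 noncoding RNAs kept narrow ratios to each other from library to library. There were 7.04 to 11.6 reads of Meg3 for each read of Rian, and 27.5 to 36.1 reads of Rian for each read of Mirg. The Meg3 to Rian ratio averaged 8.996 ± 1.71 in WT and 10.2 ± 1.27 in KO (SD, n = 3), a difference smaller than the spread within each group. These ratios compare libraries and not the levels of the genes, since the transcripts differ in length.

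**Figure D1:**
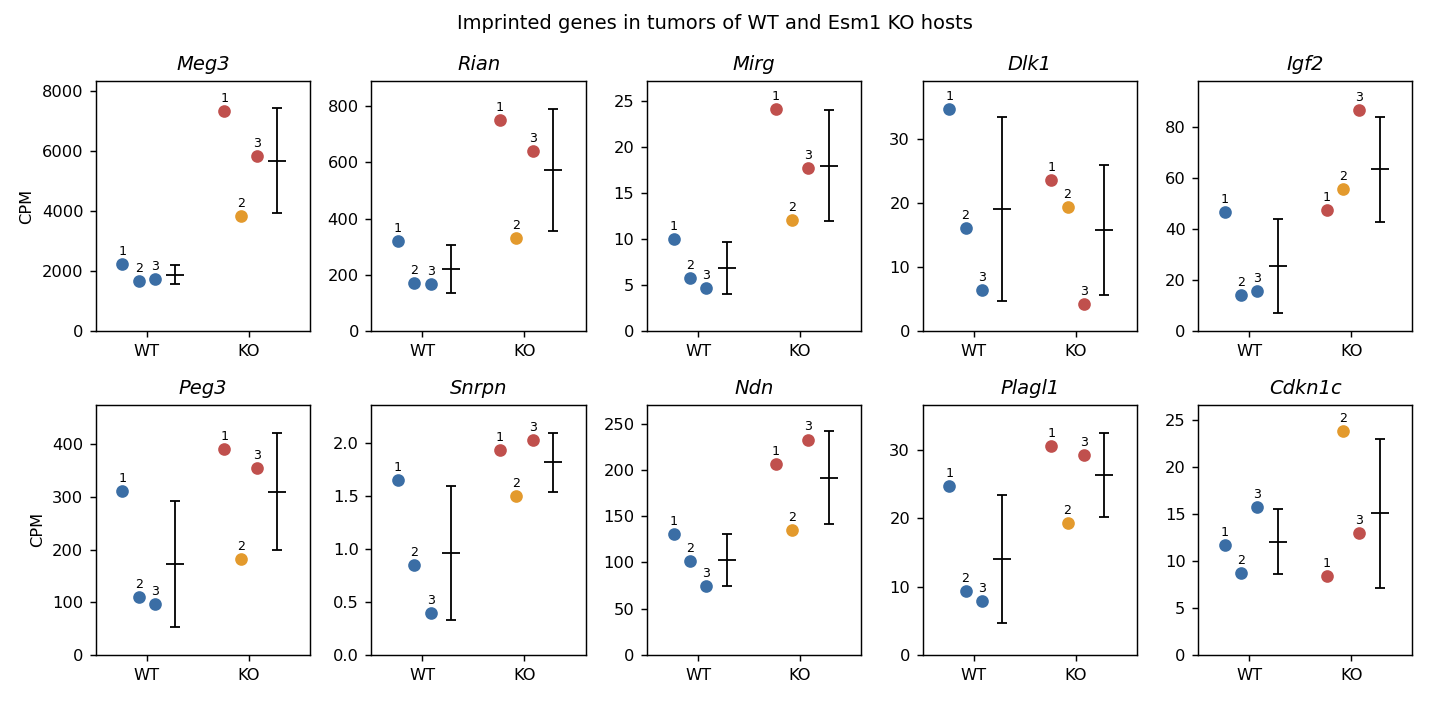
Level of each of the 10 imprinted genes in CPM (vertical axes, each from 0) in the WT libraries (blue) and KO libraries (red, with the library labelled KO 2 in orange), with replicate numbers above the points and the mean ± SD of each group (n = 3) to their right. KO points lie above all WT points for Meg3, Rian, Mirg, Igf2 and Ndn, and the groups overlap for the other 5 genes.

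The sequence before the transcript start is shown for Meg3 because the noncoding RNAs of the domain moved together, and for Peg3 because it is the only other one of these genes with the same cAMP response element. RefSeq windows of 250 bases were found for 9 of the 10 genes, 16 windows in all, and the letters TGACGTCA, a palindrome that reads alike on both strands, occurred in 2 of them. Capitals mark TGACGTCA in both windows and, in Meg3, a stretch that holds TATAAA on each strand.
Meg3, GRCm38.p6, chr12:109540746-109540995, plus strand: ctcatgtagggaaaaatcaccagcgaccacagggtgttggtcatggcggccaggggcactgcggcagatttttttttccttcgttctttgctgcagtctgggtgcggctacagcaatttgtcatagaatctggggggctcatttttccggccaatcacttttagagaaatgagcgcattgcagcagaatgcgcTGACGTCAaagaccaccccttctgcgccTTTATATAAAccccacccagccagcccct
Peg3, GRCm38.p6, chr7:6730420-6730669, minus strand: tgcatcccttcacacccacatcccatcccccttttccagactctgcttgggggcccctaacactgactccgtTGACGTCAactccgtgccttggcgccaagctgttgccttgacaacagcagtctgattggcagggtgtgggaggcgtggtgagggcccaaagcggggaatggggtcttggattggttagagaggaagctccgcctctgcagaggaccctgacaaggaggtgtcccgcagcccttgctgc
The element stood 49 bases before the end of the window in Meg3 and 170 bases before it in Peg3. TGACGTCA was present in 1.55% of all 32851 windows of this length, and TATAAA, which also occurred in 1 window of Snrpn, in 12.4%. Of the other motifs searched on both strands, the NRF1 core GCATGCGC was found in the window of Ndn (2.26% of all windows) and the GC box GGGCGG in 3 windows, 2 of Igf2 and that of Plagl1 (32.7% of all windows). The windows of Rian and Mirg held none of these 4 motifs. The RefSeq windows of Mirg, Ndn and Plagl1 lie inside the GENCODE spans of these genes, as do some of Meg3, Igf2 and Snrpn. For Mirg, Ndn and Plagl1 the search thus did not cover the sequence before the GENCODE start. A match is a run of letters and not a measured binding site.

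RefSeq places 26 mature miRNAs from 14 genes within Mirg, 6 from 3 genes within Rian and 3 from 2 genes within Meg3. Mature miRNAs are not captured by this kind of library, so the values are reads over the hairpin genes, some of which fall in the host transcript itself. The miRNAs of the hairpin genes that were tested are shown as 1 strand each, with the seed (bases 2 to 8) in capitals, followed by miR-496a-5p, the only one of the hosted miRNAs that shares a seed with another.
mmu-miR-341-5p (Rian): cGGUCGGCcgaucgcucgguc
mmu-miR-1188-5p (Rian): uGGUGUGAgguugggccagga
mmu-miR-377-3p (Mirg): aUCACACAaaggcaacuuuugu
mmu-miR-3072-3p (Mirg): uGCCCCCUccaggaagccuucu
mmu-miR-453 (Mirg): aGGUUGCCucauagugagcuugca
mmu-miR-496a-5p (Mirg): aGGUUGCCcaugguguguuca
The seed GGUUGCC occurred in miR-453 and miR-496a-5p, and each of the other hosted seeds occurred once.

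Reads over these hairpin genes were few, and their log2 fold changes were positive for all that were tested. Mir1188, within Rian, stood at 1.32, 0.899 and 0.447 CPM in WT 1 to WT 3, 4.03 in KO 1, 3.69 in KO 3 and 2.07 in the library labelled KO 2, with a log2 fold change of 1.87 (0.49). Mir3072, whose sequence overlaps an exon of Mirg, had a log2 fold change of 1.40 (0.38), close to that of its host. Mir377 stood at 1.76 (0.66), Mir341 at 1.15 (0.53) and Mir453 at 0.60 (0.51). DQ267100, a snoRNA gene that overlaps an exon of Rian, had 0.149 to 0.282 CPM in the WT libraries, 1.48 in KO 1, 1.97 in KO 3 and 0.837 in the library labelled KO 2. Mir3072, Mir377 and DQ267100 overlap exons of their hosts and can share reads with them, so their values are not separate from those of Rian and Mirg. Mir1188, Mir341 and Mir453 lie within the spans of their hosts without overlapping an annotated exon. The source of the reads over them was not tested.

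Dlk1, a transmembrane protein related to the Notch ligands and transcribed from the paternal copy, lies 88.2 kb upstream of Meg3, from 109452823 to 109463336. It stood at 34.6 CPM in WT 1, 16.1 in WT 2 and 6.50 in WT 3, and at 23.6 in KO 1, 4.31 in KO 3 and 19.4 in the library labelled KO 2. The WT and KO values overlapped over most of their range, unlike those of the 3 noncoding RNAs. For Dlk1 the log2 fold change was −0.28 (0.79), −0.45 (0.90) without the library labelled KO 2, and it changed sign with the libraries used, to 0.48 without WT 1 and 0.17 without KO 3. Reads of Meg3 for each read of Dlk1 ran from 64.9 in WT 1 to 1357 in KO 3.

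The paternally transcribed genes Rtl1 and Dio3 of the same domain are not among the 10 genes and were tested. Rtl1, a retrotransposon-derived gene that functions in the placenta, stood at 4.12 to 7.25 CPM in the WT libraries, 16.2 in KO 1, 10.4 in KO 3 and 7.98 in the library labelled KO 2. Its log2 fold change was 1.07 (0.36, adjusted p = 0.184, edgeR) over 6 libraries and 1.29 (0.34, adjusted p = 0.0246, edgeR) without the library labelled KO 2. Dio3, which inactivates thyroid hormone, had a log2 fold change of 1.31 (0.66, adjusted p = 0.210, edgeR) and passed in neither fit. Rtl1 lies antisense to Mir431, and neither kit named for these libraries marks strand, so reads of overlapping genes on opposite strands cannot be separated.

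Genes outside the imprinted list within 1 Mb of Meg3 lay on both sides of 0. Of the 10 that were tested, 6 had positive and 4 negative log2 fold changes over 6 libraries, with a median of 0.27. They ran from −0.37 (0.17) for Yy1, a zinc finger transcription factor, to 1.36 (0.38) for Begain, a postsynaptic protein. None of the 10 passed over 6 libraries, as for all genes, and 4 passed as higher and 1 as lower without the library labelled KO 2, where 52.8% of all genes passed. Begain was then at 1.65 (0.28, adjusted p = 0.0106, edgeR), in the range of Meg3, Rian and Mirg.

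**Figure D2:**
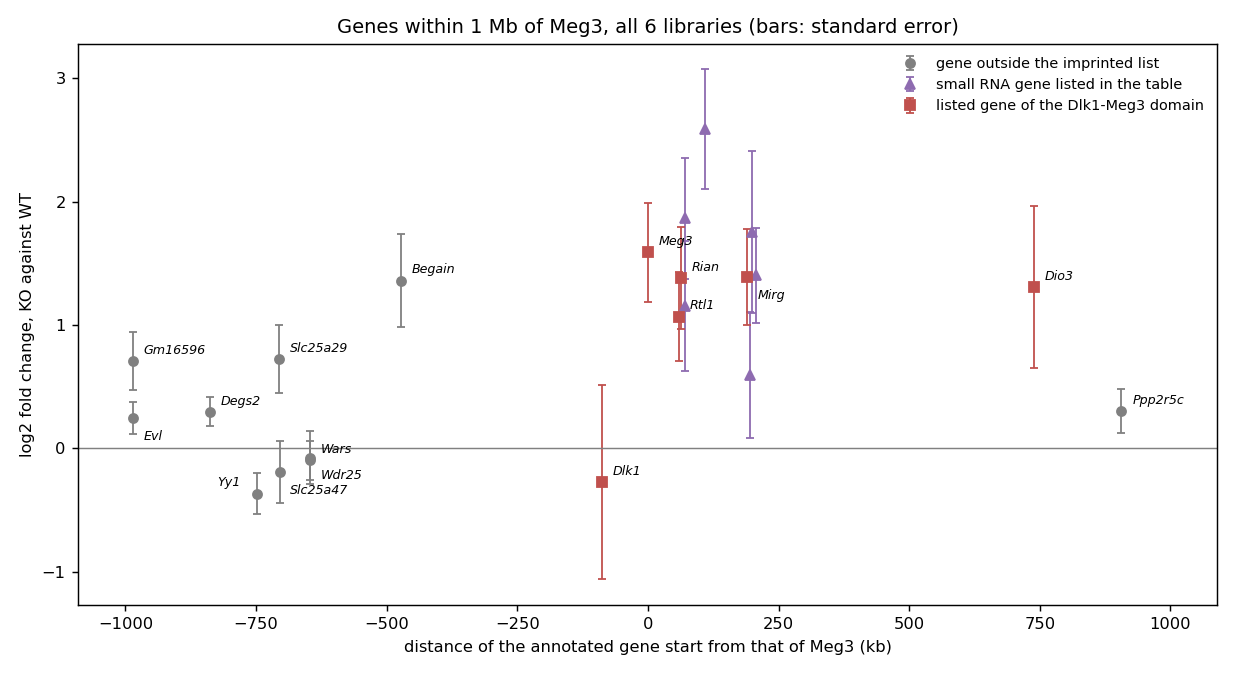
Log2 fold change, KO against WT over all 6 libraries (vertical axis, bars: standard error), against the distance of each gene start from that of Meg3 in kb, for tested genes within 1 Mb. Meg3, Rian and Mirg (red squares) lie between 1.38 and 1.59, Dlk1 at −0.28, the small RNA genes (triangles) between 0.60 and 2.59, and 10 genes outside the imprinted list (gray) between −0.37 and 1.36.

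Igf2, an insulin-like growth factor, is transcribed from the paternal copy in most tissues, though not in all. In the adult brain it is produced by the leptomeninges and choroid plexus, and which parental copy was read here could not be told. The gene lies on chromosome 7, from 142650766 to 142666816 on the minus strand. Its level was 46.7 CPM in WT 1, 14.1 in WT 2 and 15.9 in WT 3, and 47.7 in KO 1, 87.0 in KO 3 and 55.9 in the library labelled KO 2. The groups did not overlap in CPM, although WT 1 fell just short of KO 1. By the deposited FPKM WT 1 (13.1) lay above KO 1 (11.8), so the separation depends on the scaling. Unlike for Meg3, the library labelled KO 2 was above KO 1. Igf2 averaged 25.6 ± 18.3 CPM over WT libraries and 63.5 ± 20.7 CPM over KO libraries (SD, n = 3 each), with a log2 fold change of 1.31 (0.53) over 6 libraries and 1.40 (0.58) without the library labelled KO 2. Igf2 overlaps the antisense gene Igf2os, so some of these reads may belong to the other strand.

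Markers of the tissues in which Igf2 is known to be made were read beside it. All 10 genes of a leptomeningeal and perivascular fibroblast list had reads in every library, and their sum was 79.7 to 116.8 CPM in the WT libraries, 112 in KO 1, 214 in KO 3 and 140 in the library labelled KO 2. As for Igf2, KO 3 was the highest and the library labelled KO 2 came next. The rest of the order differed: the fibroblast sum was higher in WT 3, at 116.8 CPM, than in KO 1 and WT 1. The 6 choroid plexus genes in the table also had reads in every library, and their sum was 398 CPM in WT 1 against 9.25 to 21.3 CPM in the other 5 libraries. Most of the WT 1 sum was Ttr at 350 CPM, and WT 1 was also the WT library with the most Igf2. The part of either list in the values of Igf2 was not tested.

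H19, the maternally transcribed noncoding RNA beside Igf2, varied far more than Igf2 itself. It stood at 163 CPM in WT 1, 44.0 in WT 2 and 174 in WT 3, and at 11.6 in KO 1, 0.727 in KO 3 and 248 in the library labelled KO 2. KO 1 and KO 3 were below every WT library, and the library labelled KO 2 was above them all. H19 had a log2 fold change of −0.55 (1.65, adjusted p = 0.808, edgeR) over 6 libraries and, without the library labelled KO 2, of −4.37 (1.21, adjusted p = 0.0288, edgeR). There were 3.12 to 10.99 reads of H19 for each read of Igf2 in the WT libraries, 4.44 in the library labelled KO 2, 0.243 in KO 1 and 0.00836 in KO 3. Igf2 was thus at its highest in KO 3, the library with the fewest H19 reads, but it was also above every WT library in the one with the most.

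Ndn (necdin), a MAGE family protein known to restrain division in neurons that have left the cell cycle, lies on chromosome 7, from 62346569 to 62350262. It stood at 131, 102 and 74.6 CPM in WT 1 to WT 3, 206 in KO 1, 233 in KO 3 and 135 in the library labelled KO 2. The groups did not overlap, with the library labelled KO 2 just above WT 1. Ndn had the smallest standard error of the 10 genes, with a log2 fold change of 0.90 (0.29), and 1.12 (0.25) without the library labelled KO 2.

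Snrpn, a protein of the splicing machinery in the same paternally transcribed domain as Ndn, had the lowest counted level of the 10 genes. It had 35, 16 and 8 reads in WT 1 to WT 3, 34 in KO 1, 39 in KO 3 and 34 in the library labelled KO 2, which is 0.397 to 1.65 CPM in WT and 1.499 to 2.02 CPM in KO. The groups overlapped because WT 1 exceeded the library labelled KO 2. Its log2 fold change was 0.91 (0.53), and 1.04 (0.57) without that library. Snrpn shares exons with Snurf on the same strand. Reads in the shared exons may be split between them or left out of both, so the level of Snrpn is uncertain. Snurf stood at 1.15 (0.67, adjusted p = 0.255, edgeR) over 6 libraries and at 1.57 (0.52, adjusted p = 0.0474, edgeR) without the library labelled KO 2.

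The other genes of the Snrpn-Ndn domain lay on both sides of 0. Peg12, of the Frat family, fell from 16.4 to 30.2 CPM in the WT libraries to 0.681 in KO 1 and 0.208 in KO 3, with 12.6 CPM in the library labelled KO 2 and a log2 fold change of −5.62 (0.55, adjusted p = 0.00798, edgeR) without it. Mkrn3, an ubiquitin ligase with a role in the timing of puberty, stood at −3.50 (0.36, adjusted p = 0.00798, edgeR) without the same library. Neither passed over 6 libraries, at −2.28 (1.32, adjusted p = 0.250, edgeR) for Peg12 and −1.63 (0.93, adjusted p = 0.244, edgeR) for Mkrn3. Magel2 was at −0.33 (1.09) and Ube3a, the ubiquitin ligase transcribed from the maternal copy in neurons, at 0.06 (0.12).

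Peg3, a zinc finger protein transcribed from the paternal copy, lies on chromosome 7, from 6703892 to 6730431. It stood at 312 CPM in WT 1, 110 in WT 2 and 97.2 in WT 3, and at 391 in KO 1, 356 in KO 3 and 183 in the library labelled KO 2. WT 1 was far above the other WT libraries and above the library labelled KO 2, so the groups overlapped. Peg3 had a log2 fold change of 0.84 (0.54), and of 1.12 (0.53) without the library labelled KO 2. Without WT 1 it was 1.58.

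Usp29, which shares the Peg3 promoter region and is also transcribed from the paternal copy, kept step with it. There were 5.76 to 6.95 reads of Peg3 for each read of Usp29 in the 6 libraries, with a mean of 6.20 ± 0.65 in WT and 6.16 ± 0.02 in KO (SD, n = 3). Usp29 had a log2 fold change of 0.80 (0.57, adjusted p = 0.328, edgeR). Zim1, the maternally transcribed zinc finger gene of the cluster, was at −0.06 (0.84) and changed sign with the libraries used.

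Plagl1 (Zac1), a zinc finger transcription factor known to act on other imprinted genes, lies on chromosome 10, from 13060504 to 13131694. Its values were 24.8, 9.30 and 7.94 CPM in WT 1 to WT 3, 30.5 in KO 1, 29.2 in KO 3 and 19.3 in the library labelled KO 2. As with Peg3, KO 1 and KO 3 lay above every WT library, and WT 1 lay above the library labelled KO 2. The log2 fold change was 0.91 (0.48), and 1.10 (0.51) without that library.

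Cdkn1c (p57), a maternally transcribed inhibitor of cyclin-dependent kinases, lies on chromosome 7, from 143458339 to 143461050. It stood at 11.7, 8.72 and 15.7 CPM in WT 1 to WT 3, 8.40 in KO 1, 12.9 in KO 3 and 23.8 in the library labelled KO 2. The highest value was that of the library labelled KO 2 and the lowest that of KO 1, so the KO libraries enclosed the WT range. Cdkn1c had a log2 fold change of 0.32 (0.43) over 6 libraries and −0.16 (0.33) without the library labelled KO 2. Of its neighbours, the noncoding Kcnq1ot1 stood at 0.43 (0.23), Kcnq1 at −0.18 (0.31), Osbpl5 at 0.20 (0.17), Cd81 at −0.09 (0.19), Nap1l4 at −0.31 (0.16), Dhcr7 at −0.12 (0.16) and Slc22a18 at 0.05 (0.46). Tspan32, Tssc4 and Ascl2 stood at −0.48 (0.81), −0.39 (0.26) and −0.98 (0.57), and these 3 passed as lower without the library labelled KO 2, at −1.93 (adjusted p = 0.0224), −0.68 (0.0193) and −1.72 (0.0339) by edgeR.

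**Figure D3:**
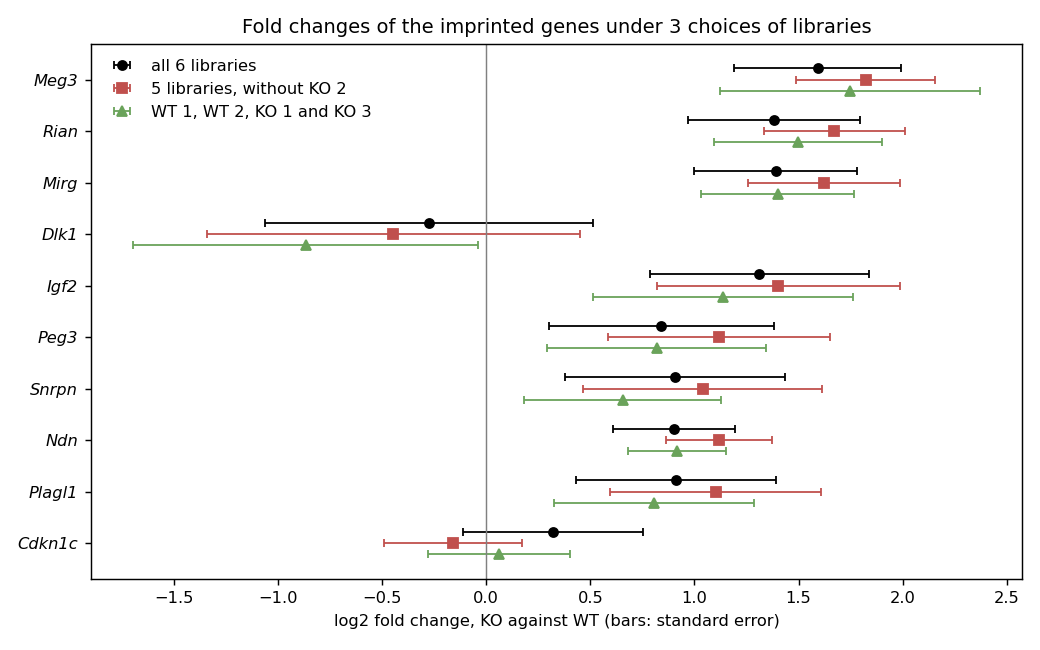
Log2 fold change of each of the 10 genes, KO against WT (horizontal axis, bars: standard error), over all 6 libraries (circles), without the library labelled KO 2 (squares) and over WT 1, WT 2, KO 1 and KO 3 (triangles). Meg3 runs from 1.59 to 1.82, Dlk1 lies below 0 under all 3 choices, and Cdkn1c lies on both sides of 0.

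As a group, 9 of the 10 genes had a positive log2 fold change over 6 libraries and 8 had one without the library labelled KO 2. Their median was 0.91 over 6 libraries and 1.12 without that library, beside −0.02 for all genes in both. For 5 of them, Meg3, Rian, Mirg, Igf2 and Ndn, all KO libraries lay above all WT libraries in CPM, which held for 12.6% of all genes tested. All KO libraries lay below all WT libraries for 0 of the 10 (14.8% of all genes). KO 1 and KO 3 lay above every WT library for 8 of the 10 genes, against 37.2% of all genes, and below every WT library for 0 (40.4%). Without the library labelled KO 2, where 52.8% of all genes passed, Meg3, Rian, Mirg and Ndn were past the threshold. DESeq2 over 6 libraries called Meg3, Rian and Mirg, beside 7.46% of all genes, and the 4 libraries WT 1, WT 2, KO 1 and KO 3 gave 0 of the 10, beside 16.7%. Since the genes were chosen for such values, nothing is read from these counts.

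Within the WT group, WT 1 had the highest level of 9 of the 10 genes, the exception being Cdkn1c, whereas it was the highest of the WT libraries for 39.4% of all genes. WT 1 was also the WT library with the most neuron transcripts and the fewest proliferation transcripts. The library labelled KO 2 lay above the WT range for 6 of the 10 genes (22.4% of all genes) and within it for 4 (55.1%). Nothing is read from these counts either, since the genes were chosen on values of the same libraries.

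Meg3 was also read against the neuron list. For each 1000 CPM of that list there were 302, 559 and 361 CPM of Meg3 in WT 1 to WT 3 and 456, 600 and 310 CPM in KO 1, the library labelled KO 2 and KO 3. The mean was 407 ± 135 in WT and 455 ± 145 in KO (SD, n = 3), so the difference was smaller than the spread within either group. On the same scale Rian averaged 45.2 ± 11.2 in WT and 44.1 ± 9.22 in KO, and Igf2 4.76 ± 1.48 and 5.43 ± 2.96. Ndn averaged 22.3 ± 10.03 in WT and 15.4 ± 4.92 in KO, and its groups overlapped. These quotients describe the libraries, and the share of each gene's RNA that came from neurons was not measured.

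**Figure D4:**
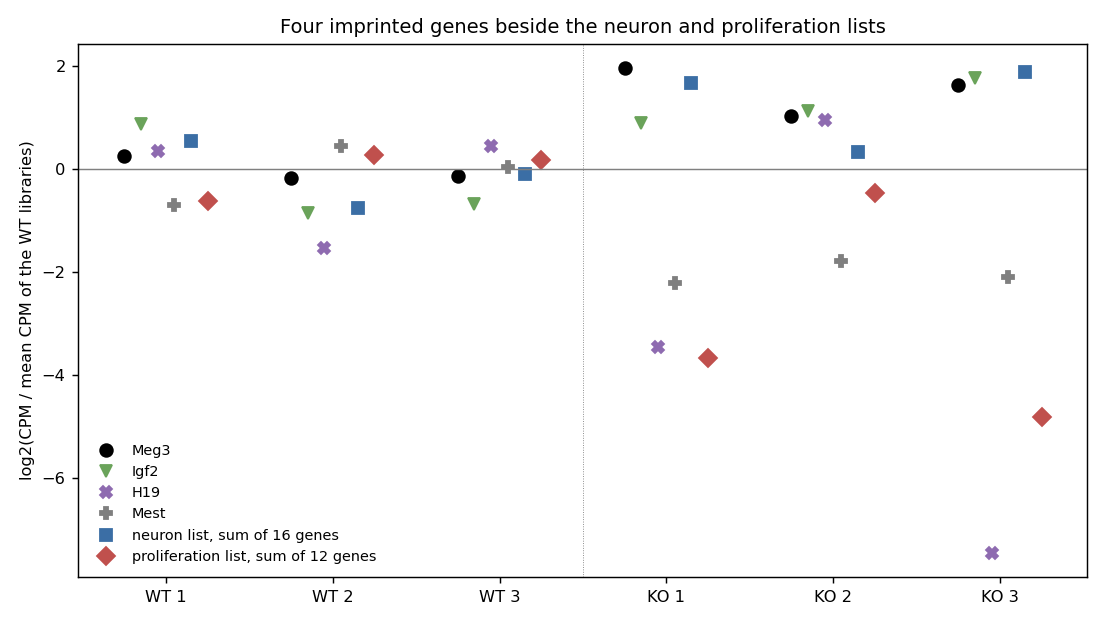
Log2 of the level in each library over the mean of the WT libraries (vertical axis) for Meg3, Igf2, H19 and Mest and for the summed neuron and proliferation lists, in the 6 libraries (horizontal axis). Meg3, Igf2 and the neuron list lie above 0 in all KO libraries, Mest lies below it in all of them, and H19 and the proliferation list are far below it in KO 1 and KO 3.

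The genes most like Meg3 over the 6 libraries were sought among 11584 genes with a mean of at least 10 CPM, by the mean absolute difference of log2 CPM after centring each gene. Snhg11, another noncoding RNA, was the nearest at 0.06, with 1087, 744 and 748 CPM in WT 1 to WT 3, 3178 in KO 1, 2646 in KO 3 and 1552 in the library labelled KO 2. Gja1 and A930011O12Rik followed at 0.12 each, L3mbtl1 at 0.13 and Coro6 at 0.14. Rian came at rank 18 and Mirg at rank 24, whereas Dlk1 stood at rank 8719. The genes most like Igf2 were Adcy8 at 0.15, Slc5a5 at 0.15, Efemp1 at 0.17, Fxyd6 at 0.18 and Ptgds at 0.18.

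Other imprinted genes, taken from a list of 55 of which 50 were tested, did not share one direction. Over 6 libraries 27 had positive and 23 negative log2 fold changes, with a median of 0.04 beside −0.02 for all genes, and edgeR called 0 of them. Without the library labelled KO 2, edgeR called 8 as higher and 14 as lower of 49, where 24.5% of all genes passed as higher and 28.3% as lower. By listed parental origin, 5 higher and 7 lower genes were among 23 paternally transcribed, and 3 higher and 7 lower among 23 maternally transcribed. The listed origin may hold only in some tissues, and it was not measured in these tumors.

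The other imprinted genes with the highest log2 fold changes over 6 libraries, apart from Dio3 and Snurf, were Slc22a2 at 1.83 (0.64), Kcnk9 at 1.39 (0.57) and Rasgrf1 at 1.24 (0.53), each with adjusted p from 0.184 to 0.186 in edgeR. Slc22a2, an organic cation transporter, rested on 3 to 39 reads per library. Kcnk9, a potassium channel, and Rasgrf1, a Ras exchange factor of neurons, passed without the library labelled KO 2, at 1.72 (adjusted p = 0.0319, edgeR) and 1.57 (adjusted p = 0.0349, edgeR).

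The lowest, besides Peg12 and Mkrn3, were Mest, Slc38a4 and Calcr. Mest, a paternally transcribed gene of the hydrolase fold family, stood at 156, 347 and 260 CPM in WT 1 to WT 3 and at 55.0 in KO 1, 59.8 in KO 3 and 74.0 in the library labelled KO 2. All KO libraries lay below all WT libraries, opposite to Meg3. Mest had a log2 fold change of −2.02 (0.32, adjusted p = 0.184, edgeR), with an adjusted p of 5.88e-05 by DESeq2, and of −2.12 (0.35, adjusted p = 0.0099, edgeR) without the library labelled KO 2. Copg2, the neighbour of Mest, was the other imprinted gene called by DESeq2, at −0.54 (adjusted p = 0.0434), and is named here because its value was seen. Without the library labelled KO 2 it stood at −0.52 (adjusted p = 0.0445, edgeR). Slc38a4, an amino acid transporter, stood at −1.59 (0.96) over 6 libraries and −3.45 (0.48, adjusted p = 0.0080, edgeR) without the library labelled KO 2. Calcr, the calcitonin receptor, stood at −1.48 (1.38) over 6 libraries and −3.14 (1.55, adjusted p = 0.132, edgeR) without the library labelled KO 2, and had 0 reads in KO 3 and 115 in WT 1.

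In the Peg10-Sgce cluster, Peg10 and Sgce, both paternally transcribed, stood at −0.85 (0.54) and −0.44 (0.28) over 6 libraries. Without the library labelled KO 2 both passed as lower, at −1.49 (adjusted p = 0.0297, edgeR) and −0.74 (adjusted p = 0.0216, edgeR), while the neuronal gene Ppp1r9a of the same cluster passed as higher at 0.87 (adjusted p = 0.0328, edgeR). Asb4 stood at −0.06 (0.91), and at −1.65 (0.58, adjusted p = 0.0565, edgeR) without that library.

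**Figure D5:**
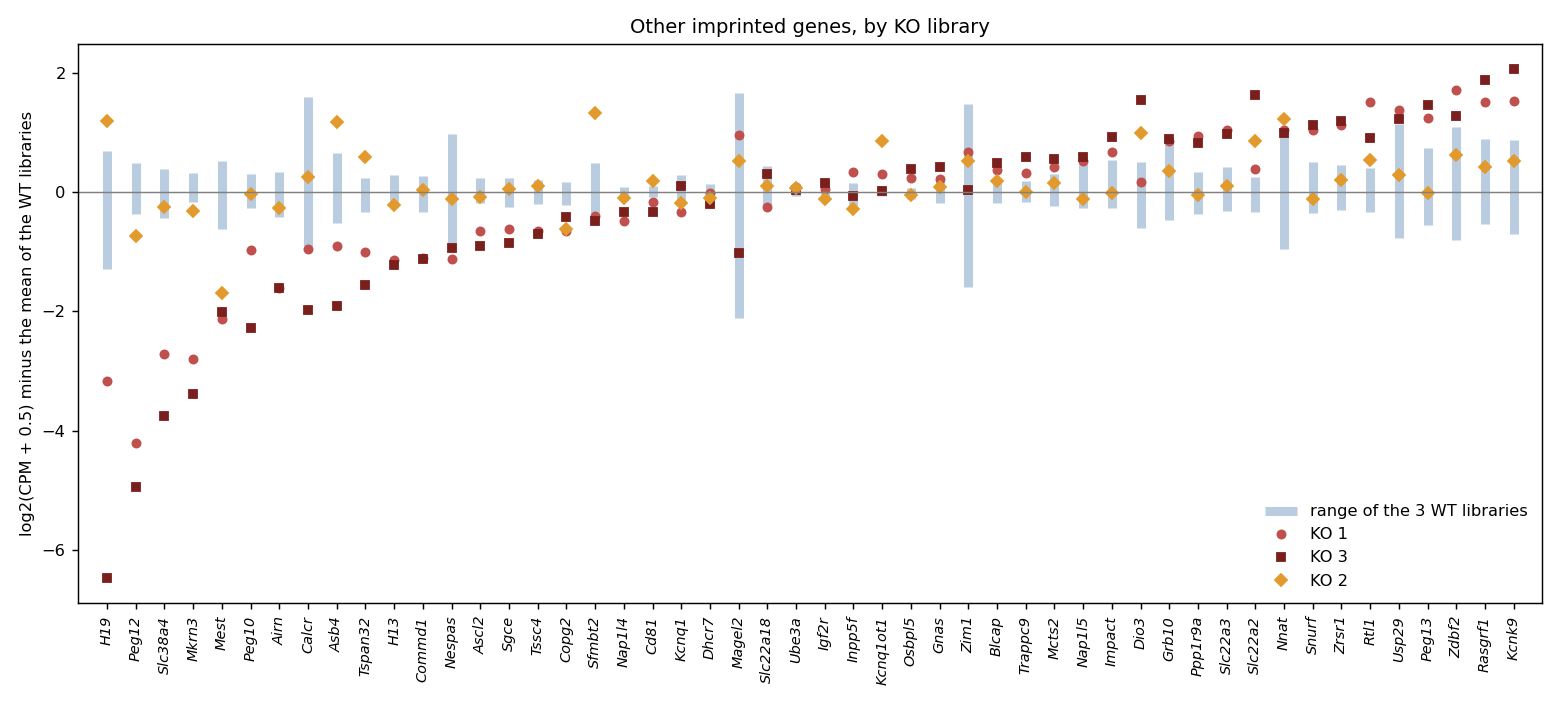
Log2(CPM + 0.5) of the 50 tested other imprinted genes in KO 1 (circles), KO 3 (squares) and the library labelled KO 2 (diamonds), minus the mean of the WT libraries (vertical axis), with the WT range as bars and genes ordered along the horizontal axis. KO 1 and KO 3 lie above the WT range for 17 genes and below it for 19, and the library labelled KO 2 lies within it for 33.

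Genes that work with the 10 were read from fixed lists, and without the library labelled KO 2 their counts stand beside 24.5% of all genes called as higher and 28.3% as lower. Of 14 genes on a list of IGF signaling, which also holds RNA-binding proteins, edgeR called 0 over 6 libraries. Without the library labelled KO 2 edgeR called 1 of them as higher and 7 as lower. Over 6 libraries the highest was Igfbp6 at 1.57 (0.63) and the lowest Igfbp3 at −1.59 (0.47), both proteins that bind Igf2. Igf2r, which is also on the list of other imprinted genes, stood at 0.02 (0.14). Of 7 inhibitors of cyclin-dependent kinases other than Cdkn1c, 0 were called over 6 libraries and 1 as higher and 5 as lower without the library labelled KO 2. Cdkn2d was the highest at 0.30 (0.15) and Cdkn2a the lowest at −1.70 (1.51), or −4.94 (1.03) without the library labelled KO 2. Of 11 genes that set, keep or remove imprints or their DNA methylation, 0 were called over 6 libraries. Without the library labelled KO 2, 7 of them were called as lower. Uhrf1, the partner of the maintenance methyltransferase, was the lowest at −1.91 (1.29), or −4.79 (0.66) without the library labelled KO 2. It had 75.9 to 145 CPM in the WT libraries, 6.75 in KO 1, 1.71 in KO 3 and 85.9 in the library labelled KO 2. Zfp445, a zinc finger protein that binds imprinting control regions, was the highest at 0.27 (0.17).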

How the data were processed

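Bulk RNA-seq of tumors from 3 WT and 3 Esm1 KO hosts was analysed. Counts were whole reads per gene as deposited, without normalization by the authors. FPKM were computed by the authors per gene and library and were used here for levels between genes only. The deposited signal values (counts scaled per library) and the authors' log2 fold changes and p-values from edgeR were not used. The labels name CASAVA 1.8.2, mm10 and a NEBNext Ultra kit, the methods name HTSeq, hg38 and an Ovation Ultralow kit, and the reporting summary names STAR.

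Groups followed the labels. Counts were fitted with edgeR 4.0.16 in R 4.3.3 (filterByExpr, minimum count 10 and minimum total 15, TMM factors, quasi-likelihood F test, Benjamini-Hochberg adjustment over all genes tested, call at an adjusted p under 0.05). The standard error is the log2 fold change over the square root of F. The p-values set the difference between groups against the variation between tumors within a group, with dispersions moderated across genes. Alternatives were the libraries WT 1, WT 2, KO 1 and KO 3 alone, each library left out, RLE factors, library totals alone, no filter, the replicate number as a block, DESeq2 1.42.0 and limma-voom (limma 3.58.1). The fits over 6 libraries by edgeR with TMM factors, by DESeq2 and by limma-voom were tested on simulated data without an outlying library. Python 3.11.15 with numpy 2.4.6, matplotlib 3.10.9 and pandas 2.3.3 was used for tables and plots.

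The 10 genes and all lists were chosen with earlier results of these data known. Genes were named by a rule: the 10 genes, the tested genes of their domains, the 5 highest and the 5 lowest other imprinted genes, the extremes of each list, Esm1 and the 5 nearest genes to Meg3 and Igf2. Of the marker lists, the extremes over 6 libraries were Slc17a7 (1.98) and Map2 (0.48) for neuron, Cnp (0.33, the lowest, the highest not being reported here) for myelinating oligodendrocyte, Cemip (1.43) and Col3a1 (−1.40) for fibroblast, Kcnj13 (−0.25) and Ttr (−5.40) for choroid plexus, Flt1 (0.65) and Kdr (−0.51) for endothelial cell, P2ry12 (0.94) and Cd68 (−1.17) for microglia and macrophage, and Pcna (−1.21) and Aurkb (−2.16) for proliferation. Positions came from GENCODE vM21 (GRCm38), matched by symbol for 15937 of 16729 genes, and sequences from RefSeq (GRCm38.p6). PCR copies were not marked.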

Additional observations from a re-analysis of the deposited data

How the results depend on the processing

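The number of calls depended on the libraries and the tool. Genes higher and lower in KO numbered 464 and 2244 over WT 1, WT 2, KO 1 and KO 3, and 775 and 431 by DESeq2, against 0 and 0 over 6 libraries. Leaving out a library gave 0 to 3986 higher and 0 to 4608 lower genes, with calls made only without KO 2. Of the other imprinted genes, 8 were lower over those 4 libraries and 2 by DESeq2, and leaving out a library gave 0 to 8 higher and 0 to 14 lower. RLE factors, library totals alone, no filter and limma-voom gave 0 calls.

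Of the 10 genes, 8 kept the sign of their log2 fold change under all 13 alternatives, with Meg3 at 1.36 to 1.82, Rian at 1.14 to 1.75, Mirg at 1.12 to 1.77, Igf2 at 1.02 to 2.08, Peg3 at 0.56 to 1.58, Snrpn at 0.55 to 1.54, Ndn at 0.72 to 1.12 and Plagl1 at 0.64 to 1.61. With libraries left out, Dlk1 ran −0.68 to 0.48, positive without WT 1 and without KO 3, and Cdkn1c from −0.16 without KO 2 to 0.61.

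Among the other imprinted genes of the domains described above, 8 changed sign when a library was left out, with Asb4 at −1.65 to 0.43, Slc22a18 at −0.16 to 0.50, Magel2 at −0.87 to 0.78, Zim1 at −0.56 to 1.09, H19 at −4.37 to 0.029, Calcr at −3.14 to 0.31, Kcnq1 at −0.34 to 0.036 and Cd81 at −0.23 to 0.016. Magel2 and Zim1 were positive with the replicate block (0.22 and 0.51) and with limma-voom (0.35 and 0.58). Over the 4 libraries Slc22a18 stood at −0.15 and Kcnq1 at 0.053, and with library totals alone Slc22a18 and Ube3a both stood at −0.10. The cause was not tested.

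Library totals alone moved the median of all genes by −0.15. The edgeR fold changes above are relative to the TMM scaling, under which that median was −0.02 over 6 libraries. The replicate number as a block gave 0 calls. The numbers did not pair the libraries: deviations from the group means correlated at 0.55 and 0.59 for numbers 1 and 2 and at −0.21 for number 3, and KO 3 correlated best with WT 1. The library labelled KO 2 differed from KO 1 and KO 3 in its Esm1 reads, and whether its label is right was not tested. With 3 libraries per group, a difference that misses the threshold was not detectable here and is not shown to be absent. Snrpn, Snurf, Dio3 and the small RNA genes rest on few reads.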
